A study of Sus scrofa with 12 samples.

Results

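The mitochondrial carrier family, SLC25, was followed in porcine oocytes during in vitro maturation. Its members were taken as all genes whose pig symbol starts with SLC25A, with the uncoupling proteins UCP1, UCP2 and UCP3 and the mitochondrial carrier homologs MTCH1 and MTCH2. The reference gene tables hold 50 such symbols, of which 44 were matched to an identifier among the 31908 in the files. MTCH2, SLC25A29, SLC25A30, SLC25A37, SLC25A51 and UCP1 were not matched and were not analysed here. Of the 44 measured members, 21 had a mean of at least 1 FPKM over all libraries and entered the test across 7013 genes. The other 23 lay under that level, and 5 of them were listed at 0 in every library.

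Carriers of this family are small membrane proteins, most of which sit in the inner mitochondrial membrane and exchange a metabolite, nucleotide or cofactor between the cytosol and the matrix. They are encoded in the nucleus and made in the cytosol, and those of the inner membrane are inserted there by the TIM22 import route, while a few members sit in the outer membrane or in peroxisomes. In an oocyte they connect the mitochondria to the ATP, amino acid and one-carbon pools of the cytoplasm, and transcripts stored during growth are translated or removed while meiosis proceeds.

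The 12 libraries were made from pools of 20 oocytes, 4 libraries each from oocytes matured in vitro for 0h, 22h or 46h. The design text names these points as the germinal vesicle, pre-metaphase I and metaphase II stages and writes 24h for the middle point, where the sample labels have 22h. The cumulus-oocyte complexes came from ovaries of prepubertal gilts, were pooled, matured in medium with follicular fluid, epidermal growth factor and gonadotropins, and were then stripped of cumulus cells. The sources name no genotype or drug that set the groups apart, and the 0h oocytes were not cultured in this medium. The labels number the replicates without saying whether they came from separate animals or cultures, so p-values measure the spread between these libraries, which may be technical.

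RNA was copied from an oligo-dT primer at the poly(A) tail and amplified by SMART-Seq2. Levels are FPKM, that is fragments scaled by transcript length and by the total of the library, which allows levels of different members to be set side by side. In such material, fewer transcripts, shorter poly(A) tails and a change in the rest of the RNA cannot be told apart. Changes are log2 fold changes of FPKM + 1, which understate the change of low genes, with standard errors (SE) and adjusted p-values from limma. A change passed where the adjusted p lay under 0.05 and the fold over 1.5, in either direction.

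The libraries held the transcripts of oocytes at all time points, with 10 of 12 listed oocyte markers matched and summing to between 28020 and 44810 FPKM. BTG4 was the largest part of this sum, at means of 15760, 15600 and 28330 FPKM at 0h, 22h and 46h. Single markers moved both ways from 0h to 46h, as ZP3 fell from 2967 to 95.5 FPKM and OOSP2 rose from 4007 to 6324 FPKM. Of 20 cumulus and granulosa cell markers, 17 were matched, 4 were listed at 0 throughout (KRT8, KRT18, LHCGR and INHA) and 15 had a mean under 1 FPKM. The summed level of these markers was between 37.7 and 86.3 FPKM at 0h, between 53.1 and 83.1 at 22h and between 112 and 140.2 at 46h, nearly all of it VCAN and STAR. Without these 2 genes the sum was 0.98 to 1.55, 0.86 to 1.55 and 0.2 to 0.94 FPKM. The part of cumulus RNA in the changes given here was not tested. The 13 mitochondrially encoded protein genes held 3.77% or less of total FPKM at 0h, at least 8.06% at 22h and at least 12.8% at 46h. Total FPKM was not fixed, at means of 738800, 746200 and 793700 at 0h, 22h and 46h. What the growing share did to the FPKM of other genes was not tested. Replicate 4 of 0h correlated least with the rest of its group, with r from 0.934 to 0.970 across genes. The number of reads per library is unknown, so no counting interval is given.

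A single member dominated the family in the first 2 groups. The summed level of the 44 members was between 678 and 1148 FPKM at 0h, between 766 and 930.2 at 22h and between 365 and 439 at 46h. SLC25A17, the peroxisomal carrier of coenzyme A, FAD and NAD, made up 48.9% to 61.3% of that sum at 0h and 50.9% to 59.7% at 22h. By 46h its part was 9.63% to 12.2%. Without SLC25A17 the sum was between 347 and 444 FPKM at 0h, between 310.1 and 444 at 22h and between 330.0 and 395 at 46h, and these ranges overlapped. SLC25A13, an aspartate/glutamate carrier, grew from 6.02% to 7.92% of the family at 0h to 29.2% to 31.6% at 46h and was its most abundant transcript there. These shares are taken within a library and are the same under any scaling by 1 factor per library.

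**Figure D1:**
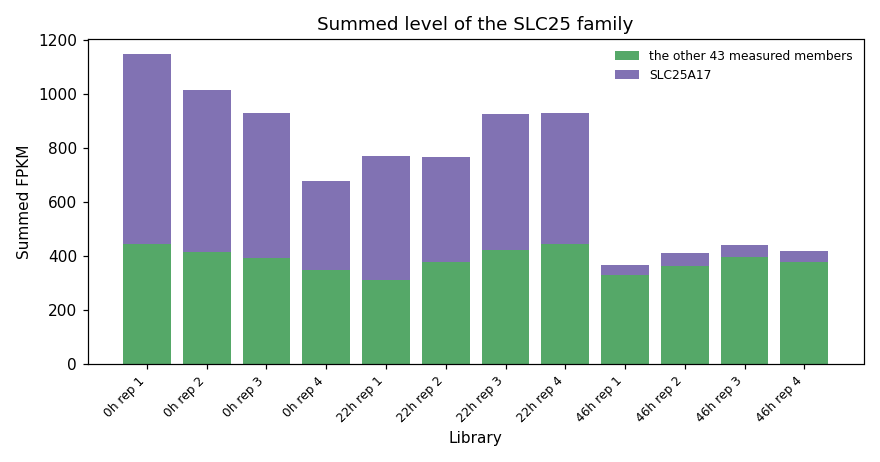
Summed FPKM of the 44 measured SLC25 family members in each of the 12 libraries, stacked as SLC25A17 (purple) and the other 43 members (green). The purple part shrinks to 35.15 to 50.4 FPKM in the 46h libraries, whereas the green part spans 310.1 to 444 FPKM over all libraries.

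Among members above 0 in any library, the mean over all libraries ranged from 349 FPKM for SLC25A17 to 0.01 FPKM for UCP3. A mean of at least 10 FPKM over all libraries was reached by 10 members, namely SLC25A17, SLC25A13, SLC25A26, SLC25A36, SLC25A5, SLC25A31, SLC25A32, SLC25A40, SLC25A4 and SLC25A38. A further 11 lay between 1 and 10 FPKM. Among them MTCH1, SLC25A6 and SLC25A12 were under 1 FPKM at 46h and SLC25A16 was under 1 FPKM at 0h, so these passed the filter through the groups in which they were higher.

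**Figure D2:**
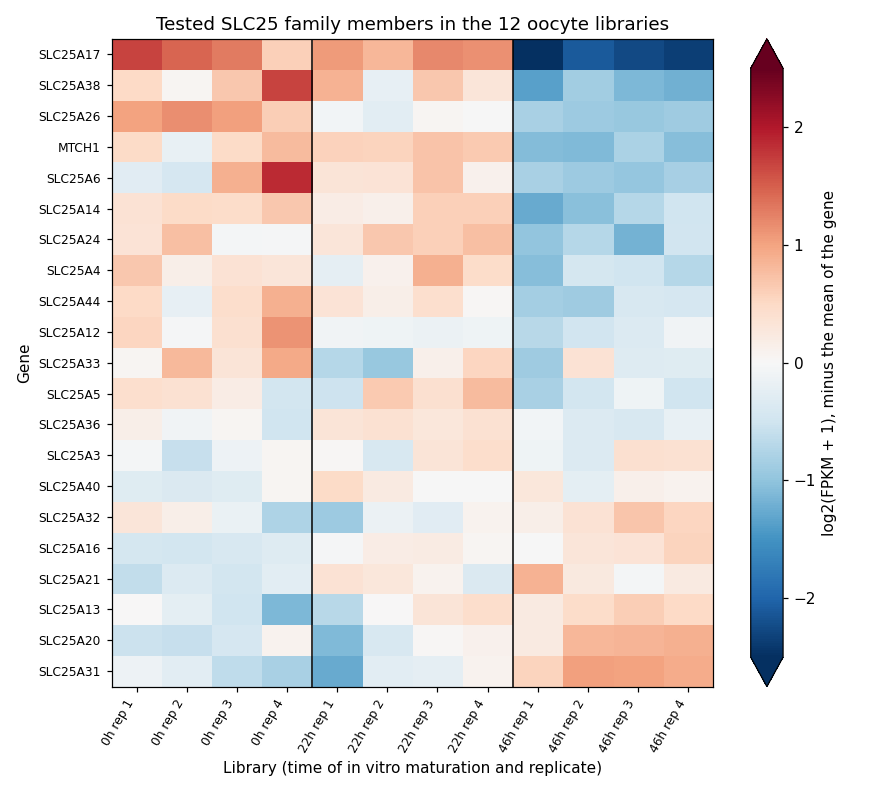
Heat map of the 21 tested members (rows) in the 12 libraries (columns), as log2(FPKM + 1) minus the mean of each gene, red above and blue below that mean. The rows are ordered by the change at 46h against 0h, from SLC25A17 at -3.59 to SLC25A31 at 1.34, and 16 rows passed in that comparison, where 2 passed at 22h against 0h.

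Since cDNA was primed at the poly(A) tail, the 3′ ends of the transcripts were read from RefSeq for Sscrofa11.1. Of the 21 tested members, 20 had a 3′ untranslated region of at least 100 bases, and all 20 carried AATAAA or ATTAAA, the hexamers of the polyadenylation signal, in its last 100 bases on the sense strand. Of 5215 tested genes with such a window, 78.1% carried either hexamer. TTTTAT or TTTTAAT, letters of the cytoplasmic polyadenylation element through which stored oocyte mRNAs gain poly(A) tails, stood in the windows of 3 of the 20 members, SLC25A17, SLC25A44 and SLC25A5, against 22.9% of the 5215 genes. The annotated 3′ end need not be the one used in the oocyte, and a match is a description of letters. Shown first are the last 30 bases of the 3 carriers with the largest rises at 46h, with the AATAAA hexamer in capitals, and then the 30 bases around TTTTAT, in capitals, in the dominant carrier and in an ADP/ATP carrier.
SLC25A31, minus strand, chr8:97095503-97095532: attgatgatAATAAAggaaccttaaaattt
SLC25A20, minus strand, chr13:31523820-31523849: aggaaacAATAAAtatgttttctaattttt
SLC25A13, minus strand, chr9:75781421-75781450: gaaaaaggaAATAAActatttttaaagcga
SLC25A17, plus strand, chr5:7669920-7669949: ccaaacctgaggTTTTATgttcatccgtat
SLC25A5, plus strand, chrX:97922171-97922200: cccaattatattTTTTATttcagtcactcc
By direction at 46h against 0h, 0 of the 5 members that rose, 2 of the 10 that fell with a window and 1 of the 5 that did not pass held either TTTTAT or TTTTAAT. Of the 5215 genes 22.9% did, and that share was not taken by direction. These small counts are therefore not read as a difference between directions.

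The comparison of 22h with 0h asks what changed up to the resumption of meiosis. Of the 21 tested members 2 passed in either direction, where 26.7% of all genes tested did. None rose, where 7.84% of all genes did, and 2 fell (9.52%), SLC25A26 and SLC25A12, against 18.9% of all genes. At an unadjusted p under 0.05 there were 4 rises and 3 falls, where 16.9% of all genes rose and 26.2% fell by that measure. The median change was 0.02 over the members and -0.00 over all genes. The call of SLC25A12 was lost without replicate 1, 3 or 4 of 0h or without any replicate of 22h, with changes between -0.42 and -0.66. It was also lost with quantile normalization (-0.42), median-of-ratios scaling (-0.56), a pseudocount of 0.1, no filter and a fit of the compared groups alone. The members that fell then numbered 1, save without replicate 4 of 22h. SLC25A13 and SLC25A21 passed as higher without replicate 1 of 22h (0.73) and without replicate 4 of 22h (0.67), respectively, and SLC25A33 passed as lower without replicate 4 of 22h (-1.04), which kept the number of falls at 2.

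Between 22h and 46h, 14 members passed, where 42.4% of all genes did, and 3 of them rose (14.3%), SLC25A31, SLC25A20 and SLC25A32, where 9.87% of all genes did. In the same interval 11 fell (52.4%), where 32.6% of all genes did, led by SLC25A17, MTCH1 and SLC25A38. The median change was -0.59 over the members and -0.26 over all genes. Over the whole of maturation, 46h against 0h, 16 members passed, where 55.9% of all genes did, and 5 of them rose (23.8%), SLC25A31, SLC25A20, SLC25A13, SLC25A21 and SLC25A16, against 16.8% of all genes, and 11 fell (52.4%) against 39.1%. The median change was -0.82 over the members and -0.25 over all genes. Among the calls at 46h against 0h are the rise of SLC25A16 and the falls of MTCH1, SLC25A6 and SLC25A12. These members were under 1 FPKM in a group compared and entered the test through their higher groups. The falls of MTCH1 and SLC25A6 from 22h have the same limit. Whether the members' shares differ from those of all genes was not tested. The 3 comparisons share their libraries in pairs and are not independent.

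The balance of rises and falls at 46h depended on how libraries were scaled. With median-of-ratios scaling the median change of all genes at 46h against 0h was 0.06 and with quantile normalization 0.34, in place of -0.25. The share of rises among all calls was then 47.0% and 59.7%, in place of 30.1%. Under either scaling 8 members rose, where 40.3% of all genes did with quantile normalization and 29.3% with median-of-ratios scaling. The members that fell numbered 6 and 10 in that order, where 27.2% and 33.1% of all genes fell. At 46h against 22h, rises made up 55.4% of all calls with quantile normalization and 44.0% with median-of-ratios scaling, in place of 23.3%. No member that passed in a comparison changed direction in it under any setting tried.

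**Figure D3:**
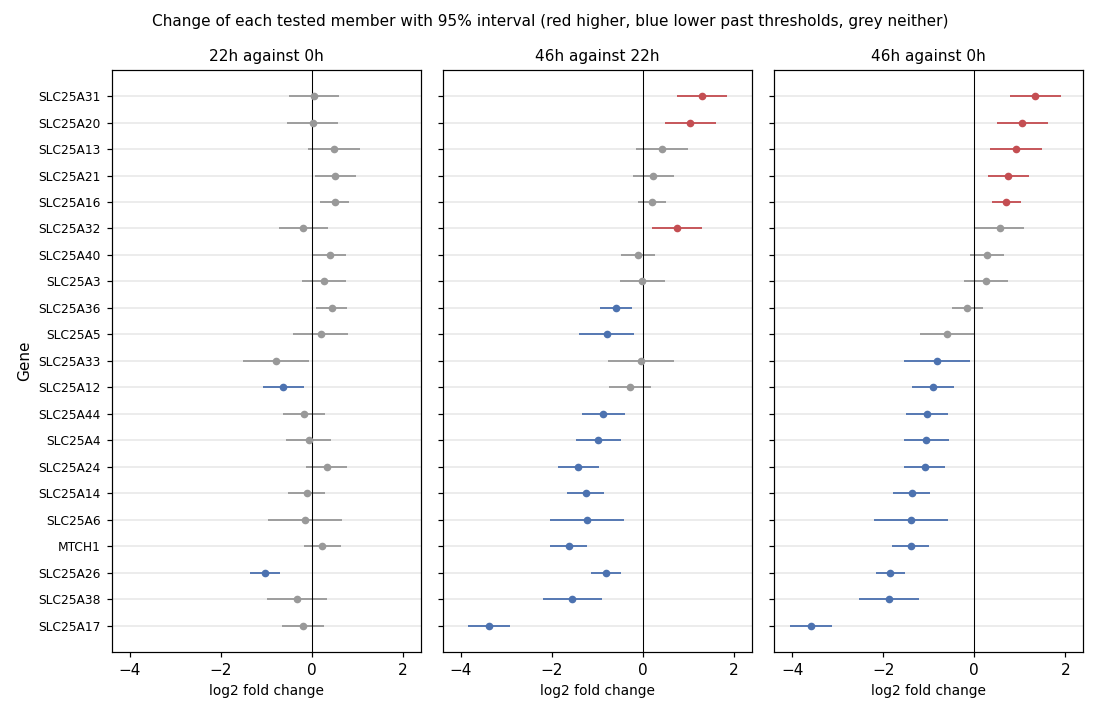
Log2 fold change of FPKM + 1 for each of the 21 tested members in the 3 comparisons, as points with 95% intervals from limma, red where the member passed as higher, blue where it passed as lower and grey otherwise. At 22h against 0h 2 points are blue and none is red, and at 46h against 0h 11 are blue and 5 red.

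Among the carriers of cofactors, nucleotides and glutathione, SLC25A17 had the largest change in the family. Its gene, ENSSSCG00000000072, lies on the plus strand at chr5:7622638-7669980 of Sscrofa11.1. The 0h libraries held 704, 601, 536 and 332 FPKM, the 22h libraries 459.8, 389.8, 505 and 486 FPKM, and the 46h libraries 35.15, 50.4, 44.65 and 42.0 FPKM. Every 46h library lay far below every earlier one, while those of 0h and 22h overlapped. The fall from 22h was 10.5-fold (log2 change -3.39, SE 0.214, adjusted p = 1.40e-08, limma), and 145 of the 7013 genes fell further in that interval. Against 0h the change was -3.59 (adjusted p = 3.94e-09), and over all settings tried it stayed between -3.19 and -3.81. At 22h against 0h the change was -0.19, with an interval from -0.65 to 0.27.

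SLC25A26 brings S-adenosylmethionine, the methyl donor, into the mitochondrial matrix, and was the only member that passed in all 3 comparisons. It was 117, 131, 119 and 89.55 at 0h, 54.7, 48.2, 59.45 and 57.7 at 22h and 32.6, 30.4, 29.5 and 30.9 FPKM at 46h. The 3 groups did not overlap, and its level fell at each step. The first step was a 2.04-fold fall (log2 change -1.03, SE 0.151, adjusted p = 2.11e-04, limma) and the second a 1.75-fold fall (-0.81, adjusted p = 5.12e-04). The second step did not pass with quantile normalization (-0.38) or median-of-ratios scaling (-0.46), whereas the first and the whole change of -1.84 did.

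**Figure D4:**
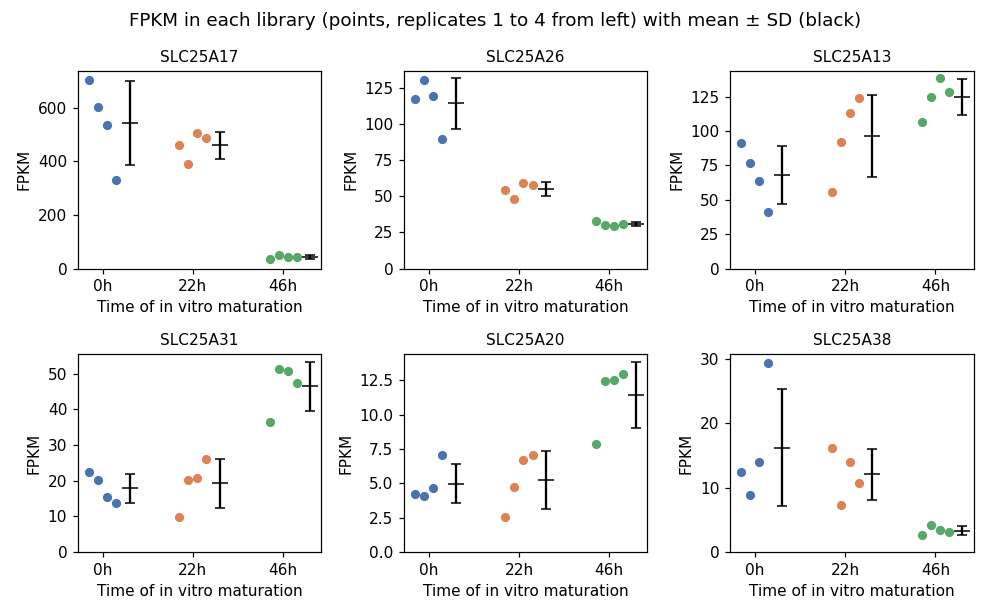
FPKM of 6 members in each library (points, replicates 1 to 4 from left in each group) with the mean and SD of the 4 libraries (black). SLC25A17, SLC25A26 and SLC25A38 lie lowest at 46h, and SLC25A31 and SLC25A20 lie highest there, with replicate 1 of 46h the lowest of its group for both.

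The remaining members of this group moved less. SLC25A16, linked to coenzyme A in mitochondria, went up from 0.808 ± 0.0789 FPKM (SD, n = 4) at 0h to 1.57 ± 0.207 at 22h and 1.97 ± 0.479 at 46h. As SLC25A16 was under 1 FPKM at 0h, it entered the test through the later groups. Its change was 0.70 at 46h against 0h (adjusted p = 8.15e-04, limma) and 0.50 at 22h against 0h. At 22h the adjusted p was 0.0182 but the fold of FPKM + 1 lay under 1.5. The change at 22h passed with a pseudocount of 0.1 (0.87), quantile normalization (0.63) and TPM without mitochondrially encoded genes (0.64), and that from 22h to 46h with quantile normalization (0.68). SLC25A32, a folate and FAD carrier, was 20.1 ± 5.63 FPKM at 22h and 33.7 ± 5.53 at 46h, a rise of 0.75 (adjusted p = 0.0245). That call was lost without replicate 1 of 22h (0.55), replicate 3 of 46h (0.66) or replicate 4 of 46h (0.71), and also with TPM (0.67) and no filter. Against 0h, at 23.2 ± 7.11 FPKM, the change of SLC25A32 was 0.56, with an interval from 0.02 to 1.10 and an adjusted p of 0.0679, and it passed without replicate 1 of 0h (0.70), with quantile normalization (1.14), median-of-ratios scaling (0.94) and TPM without mitochondrially encoded genes (0.65).

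SLC25A33 and SLC25A36 carry pyrimidine nucleotides into mitochondria. SLC25A33 was 4.71 ± 1.60 at 0h, 2.51 ± 1.67 at 22h and, by 46h, 2.28 ± 1.19 FPKM. Its change of -0.82 at 46h against 0h passed narrowly (adjusted p = 0.0465, limma) and was lost without replicate 2, 3 or 4 of 0h or replicate 1, 3 or 4 of 46h, at -0.62 to -0.89. It was also lost with quantile normalization (-0.13), median-of-ratios scaling (-0.52), a pseudocount of 0.1, no filter and TPM without mitochondrially encoded genes. SLC25A36 held 39.9 ± 7.44 at 0h, 53.7 ± 1.84 at 22h and, by 46h, 35.5 ± 3.93 FPKM. Its change from 22h to 46h was -0.59 (adjusted p = 0.00787), and the call was lost without replicate 2 or 4 of 22h or replicate 2 or 3 of 46h, at -0.54 to -0.58, and also with quantile normalization (-0.17) and median-of-ratios scaling (-0.24). At 46h against 0h its change was -0.15 as deposited, 0.41 with quantile normalization and 0.24 with median-of-ratios scaling, and it passed in none of these.

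SLC25A40, which brings glutathione into mitochondria, was 19.8 ± 2.83 at 0h, 26.4 ± 4.65 at 22h and, by 46h, 24.4 ± 3.68 FPKM. Its change at 46h against 0h was 0.28, with an interval from -0.08 to 0.65, and it passed with quantile normalization (0.83) and median-of-ratios scaling (0.67). SLC25A39, its paralog, was listed at 0 in 7 libraries and reached 0.4 FPKM at most. The coding sequences of this pair are 60.4% identical, and the longest run of bases their transcripts share is 11.

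The ADP/ATP carriers exchange the ATP made in the matrix for cytosolic ADP. Their 4 members, SLC25A4, SLC25A5, SLC25A6 and SLC25A31, had summed levels that overlapped between the groups while the share of each gene in the sum changed. The sum was between 56.6 and 80.2 FPKM at 0h, between 41.1 and 94.0 at 22h and between 57.7 and 85.3 at 46h. SLC25A31, the form best known from germ cells, made up 23.1% to 28.3% of that sum at 0h and 23.7% to 27.8% at 22h. At 46h it made up 59.4% to 64.0%, above every earlier library. This ratio within a library shows unequal change among the 4 genes and is the same under any scaling by 1 factor per library.

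SLC25A31 itself, ENSSSCG00000009078 at chr8:97095503-97120940, held 22.3, 20.2, 15.4 and 13.6 FPKM at 0h. It held 9.74, 20.2, 20.8 and 26.1 FPKM at 22h and 36.5, 51.3, 50.7 and 47.4 at 46h. All 46h libraries lay above all earlier ones, and those of 0h lay within the range of 22h. The rise from 22h was 2.46-fold (log2 change 1.3, SE 0.258, adjusted p = 8.59e-04, limma), and 51 of the 7013 genes rose more. Against 0h the change was 1.34 (adjusted p = 3.89e-04), and it passed in both comparisons under every setting tried.

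**Figure D5:**
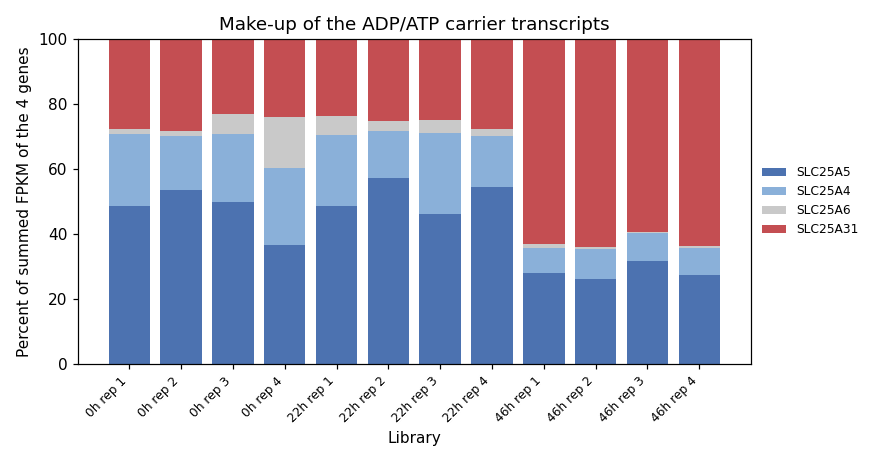
Percent of the summed FPKM of the 4 ADP/ATP carrier genes held by each gene, as stacked bars for each of the 12 libraries. SLC25A31 (red) takes 23.1% to 28.3% in the 0h and 22h libraries and 59.4% to 64.0% in the 46h libraries, and SLC25A6 (grey) reaches 15.7% in replicate 4 of 0h.

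SLC25A4, the form best known from heart and muscle, was 17.7, 11.99, 14.1 and 13.4 at 0h, 8.98, 11.5, 20.7 and 14.96 at 22h and 4.59, 7.56, 7.28 and 6.09 FPKM at 46h. The 46h libraries lay below all others. SLC25A4 fell by 1.06 on the log2 scale against 0h (SE 0.231, adjusted p = 0.0011, limma) and by 0.99 against 22h (adjusted p = 0.00287), and with quantile normalization neither change passed (-0.40 and -0.46).

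SLC25A5, the form of many growing tissues, was 38.95, 38.0, 33.2 and 20.8 at 0h, 19.96, 45.9, 38.5 and 51.0 at 22h and 16.0, 20.8, 27.0 and 20.3 FPKM at 46h. The groups overlapped. Its change from 22h to 46h was -0.80 (adjusted p = 0.0297, limma), and the call was lost without replicate 2, 3 or 4 of 22h or replicate 1, 2 or 4 of 46h, at -0.64 to -0.80, and also with quantile normalization (-0.36), median-of-ratios scaling (-0.46) and no filter. At 46h against 0h the change of -0.60 did not pass (interval from -1.20 to 0.00), and it passed without replicate 4 of 0h (-0.80) and without replicate 1 of 22h (-0.60), and in a fit of the compared groups alone (-0.60).

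SLC25A6 was the least abundant of the 4, at 1.26, 1.05, 4.07 and 8.91 at 0h, 2.41, 2.45, 3.46 and 1.93 at 22h and 0.57, 0.46, 0.41 and 0.53 FPKM at 46h. Replicate 4 of 0h stood highest, and all 46h libraries lay below the rest. With values under 1 FPKM at 46h, SLC25A6 entered the test through the earlier groups. SLC25A6 fell by 1.39 on the log2 scale against 0h (SE 0.379, adjusted p = 0.00534, limma), and without replicate 4 of 0h the change was -0.94 and still passed. Its change of -1.24 from 22h (adjusted p = 0.0147) did not pass with no filter. The coding sequences of SLC25A4, SLC25A5 and SLC25A6 are 76.8% to 78.7% identical, with a longest shared run of 20 bases in their transcripts, and how the authors' counting split reads between them was not tested, which leaves their levels less certain.

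The other carriers that handle phosphate differed from each other. SLC25A3, which brings phosphate into the matrix for ATP synthesis, was 4.30 ± 0.921 at 0h, 5.47 ± 1.56 at 22h and 5.41 ± 1.59 FPKM at 46h, with an interval of the change at 46h against 0h from -0.23 to 0.75. It passed as higher with median-of-ratios scaling (0.59) and quantile normalization (0.94). SLC25A24, an ATP-Mg/phosphate carrier, was 5.06, 7.08, 3.65 and 3.70 at 0h, 4.92, 6.66, 6.26 and 7.09 at 22h and 1.43, 1.92, 1.12 and 2.46 FPKM at 46h. The 46h libraries lay below all others, and the change was -1.42 from 22h (SE 0.209, adjusted p = 7.00e-05, limma) and -1.09 from 0h (adjusted p = 3.88e-04). The latter did not pass with quantile normalization (-0.41). SLC25A23, SLC25A25 and SLC25A41, related ATP-Mg/phosphate carriers, did not exceed 0.2 FPKM in any library.

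The amino acid and carnitine carriers included members that rose and members that fell, and all 5 that were tested passed at 46h against 0h, where 55.9% of all genes did. SLC25A13 and SLC25A12 exchange matrix aspartate for cytosolic glutamate as a step of the malate-aspartate shuttle, and they moved in opposite directions. SLC25A13 was 90.9, 76.4, 63.6 and 40.8 at 0h, 56.0, 91.85, 113.1 and 124.0 at 22h and 106.7, 124.6, 138.8 and 128.2 FPKM at 46h. The 46h libraries lay above those of 0h and overlapped those of 22h. SLC25A13 rose by 0.92 against 0h (SE 0.266, adjusted p = 0.00772, limma), a call kept under every setting, while the change from 22h to 46h was 0.42, with an interval from -0.15 to 0.99, and passed with quantile normalization (0.66) and median-of-ratios scaling (0.78).

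SLC25A12 was 2.49, 1.33, 2.17 and 4.23 at 0h, 1.26, 1.23, 1.16 and 1.21 at 22h and 0.49, 0.72, 0.90 and 1.24 FPKM at 46h. Every library of 22h and 46h lay below those of 0h, and those of 22h and 46h overlapped. With a mean under 1 FPKM at 46h, SLC25A12 entered the test through the earlier groups. Its change was -0.91 at 46h against 0h (SE 0.213, adjusted p = 0.00187, limma), which did not pass with quantile normalization (-0.30), and -0.62 at 22h (adjusted p = 0.0384), the call that was lost without any of 7 libraries, as given above. The coding sequences of the pair are 72% identical, with a longest shared run of 20 bases. SLC25A12 was far below SLC25A13 in FPKM at each time point, and how reads of the pair were split by the authors' counting was not tested.

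SLC25A20 passes acylcarnitines into the matrix in exchange for carnitine. The 0h libraries held 4.19, 4.08, 4.63 and 7.04 FPKM, those of 22h held 2.51, 4.72, 6.68 and 7.10 FPKM, and those of 46h held 7.84, 12.4, 12.6 and 12.95 FPKM. All 46h libraries lay above the others, replicate 1 of 46h by the smallest margin. From 22h to 46h the rise was 2.06-fold (log2 change 1.04, SE 0.261, adjusted p = 0.00451, limma), and it passed under every setting. Up to 22h the change was 0.02, with an interval from -0.54 to 0.58. Of the listed enzymes of the carnitine shuttle only CPT2, which releases the acyl group from carnitine in the matrix, was tested. CPT2 fell by 1.36 on the log2 scale from 22h to 46h (SE 0.221, adjusted p = 1.68e-04, limma) and by 1.12 from 0h (adjusted p = 4.80e-04).

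SLC25A38, which brings glycine into the matrix for heme synthesis, was 12.4, 8.83, 14.0 and 29.4 at 0h, 16.2, 7.25, 14.0 and 10.7 at 22h and 2.67, 4.17, 3.34 and 3.10 FPKM at 46h. Replicate 4 of 0h stood apart as the highest, and all 46h libraries lay below the rest. The change was -1.87 at 46h against 0h (SE 0.306, adjusted p = 9.73e-05, limma) and -1.55 against 22h (adjusted p = 8.00e-04), and both passed under every setting, replicate 4 of 0h left out included.

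SLC25A44, a carrier of branched-chain amino acids, was 7.97, 4.52, 7.66 and 10.8 at 0h, 7.05, 6.04, 7.55 and 5.53 at 22h and 2.55, 2.46, 3.85 and 3.75 FPKM at 46h. The 46h libraries lay below all earlier ones. SLC25A44 fell by 1.04 on the log2 scale against 0h (SE 0.217, adjusted p = 7.84e-04, limma), and by 0.87 against 22h (adjusted p = 0.0044), and with quantile normalization both changes were -0.36 and did not pass. SLC25A15, the ornithine carrier, was under the filter, and SLC25A22, a glutamate carrier, did not exceed 0.21 FPKM.

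The di- and tricarboxylate carriers were low apart from SLC25A21, which moves oxoadipate and related acids of lysine breakdown. SLC25A21 was 4.38 ± 0.558 at 0h, 6.79 ± 1.59 at 22h and 8.24 ± 2.68 FPKM at 46h. Its 46h libraries, from 5.96 to 12.1 FPKM, lay above those of 0h, from 3.70 to 4.99 FPKM. The rise was 0.75 on the log2 scale (SE 0.210, adjusted p = 0.00645, limma), and without replicate 1 of 46h, the highest, it was 0.56 and did not pass. The change at 22h against 0h was 0.52 and passed with quantile normalization (0.69) and TPM without mitochondrially encoded genes (0.61), and that from 22h to 46h was 0.23 and passed with quantile normalization (0.72). SLC25A1, the citrate carrier, SLC25A10, the dicarboxylate carrier, and SLC25A11, the oxoglutarate carrier, did not exceed 0.74 FPKM in any library.

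Of the uncoupling proteins and their relatives, only SLC25A14 was tested. It was 4.96, 5.47, 5.36 and 6.32 at 0h, 4.27, 4.07, 6 and 5.99 at 22h and 0.93, 1.24, 1.81 and 2.26 FPKM at 46h. The 46h libraries lay below all others. The change was -1.38 against 0h (SE 0.187, adjusted p = 1.70e-05, limma) and -1.26 against 22h (adjusted p = 7.24e-05). UCP2 was listed at 0 in all 12 libraries, and UCP3 was above 0 in a single library, replicate 3 of 22h, at 0.12 FPKM.

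MTCH1, a relative of the carriers that sits in the outer mitochondrial membrane, was 3.57, 1.86, 3.55 and 4.63 at 0h, 3.89, 3.79, 4.32 and 4.13 at 22h and 0.54, 0.53, 0.88 and 0.56 FPKM at 46h. No library of 46h reached any earlier one. With values under 1 FPKM at 46h, MTCH1 entered the test through the earlier groups, and its calls at 46h were kept with no filter. The fall from 22h was 3.10-fold (log2 change -1.63, SE 0.187, adjusted p = 6.10e-06, limma), and that from 0h was 2.64-fold (adjusted p = 1.45e-05). SLC25A46, a further outer membrane member, lay between 0.44 and 1.23 FPKM in all libraries, and its groups overlapped in each comparison.

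Of the 23 members under the filter, the 18 that were above 0 in at least 1 library were compared library by library, with an exact two-sided permutation test of 4 against 4 libraries, whose smallest possible p is 0.0286. At 46h, 8 members lay below 0h in every library, where 14.4% of the 10620 genes under the filter and above 0 in any library did. Among them were SLC25A27, SLC25A25, SLC25A15, SLC25A1, SLC25A53, SLC25A48 and SLC25A10. Against 22h 5 did (8.41% of those genes), and at 22h against 0h 1 did (4.6%). No member under the filter lay wholly higher in a later group in any comparison, where 0.725% of these genes did at 22h against 0h, 0.612% at 46h against 22h and 0.97% at 46h against 0h.

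SLC25A27, a brain-type uncoupling relative, was 0.91 ± 0.124 FPKM (SD, n = 4) at 0h, 0.925 ± 0.0444 at 22h and 0.485 ± 0.0289 at 46h (exact permutation test against either, p = 0.0286). SLC25A1 was 0.503 ± 0.274 FPKM at 0h and 0.363 ± 0.226 at 22h, and was listed at 0 in every 46h library. SLC25A53 and SLC25A15 were at most 0.08 and 0.16 FPKM at 46h. SLC25A35 overlapped between all groups and ranged from 0 to 1.45 FPKM. SLC25A48 was 0.12 to 0.67 FPKM at 0h and listed at 0 in every 46h library. SLC25A28, SLC25A42 and SLC25A43 did not exceed 0.21 FPKM, and SLC25A34, SLC25A41, SLC25A45, SLC25A47 and UCP2 were listed at 0 throughout.

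Some members are close neighbours in the genome. UCP2 and UCP3 on chromosome 9 are 13470 bases apart, and SLC25A23 and SLC25A41 on chromosome 2 are 1932 bases apart, and all 4 lay under the filter. SLC25A43 and SLC25A5 on chromosome X are 12523 bases apart, and SLC25A43 did not exceed 0.05 FPKM where SLC25A5 was 16.0 FPKM or more in every library.

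Other genes through which carriers are imported, or which work beside them, were taken from lists of 40 genes, of which 38 were in the files and 23 were tested. At 22h against 0h 1 rose and 8 fell, where 7.84% of all genes rose and 18.9% fell, and the median change was 0.00 beside -0.00 over all genes. At 46h against 22h 1 rose and 12 fell, where 9.87% and 32.6% of all genes did, with a median of -0.67 beside -0.26. At 46h against 0h 2 rose and 13 fell, where 16.8% and 39.1% of all genes did, with a median of -1.12 beside -0.25. In that comparison 7 rose with quantile normalization and 6 with median-of-ratios scaling, where 40.3% and 29.3% of all genes did. Whether these counts differ from those of all genes was not tested. Of the 8 tested genes of the TIM22 import route, 4 fell at 22h against 0h, 6 at 46h against 22h and 5 at 46h against 0h. Of all genes, 18.9%, 32.6% and 39.1% fell in these comparisons. None of the 8 passed as higher. TIMM22, the channel of that route, went from 210.1 ± 13.8 FPKM at 0h to 112 ± 50.2 at 22h and 6.65 ± 2.53 at 46h (log2 change -4.84 at 46h against 0h, adjusted p = 3.96e-09, limma). TOMM70, the outer membrane receptor for carrier precursors, went from 36.25 ± 9.65 to 17.7 ± 2.93 and 3.75 ± 0.495 FPKM (-2.94, adjusted p = 9.12e-09). TOMM20, a further import receptor, went from 129 ± 24.4 to 31.7 ± 11.2 and 2.47 ± 1.25 FPKM (-5.28, adjusted p = 2.49e-09).

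Of 10 tested transporters outside the family, 1 rose and 6 fell at 46h against 0h, where 16.8% of all genes rose and 39.1% fell. VDAC1, a pore of the outer membrane, rose from 42.5 ± 4.56 FPKM to 83.1 ± 14.0 FPKM (0.94, adjusted p = 2.74e-04, limma), whereas its relative VDAC3 fell from 266 ± 50.3 FPKM to 11.6 ± 1.73 FPKM (-4.39, adjusted p = 1.44e-09). MPC1, a subunit of the pyruvate carrier, fell from 103 ± 8.31 FPKM at 0h to 52.3 ± 6.70 at 22h (-0.96, adjusted p = 7.94e-04). MPC2, the other subunit, was 4.35 ± 1.11 FPKM at 0h, 6.51 ± 1.02 at 22h and 6.87 ± 0.923 at 46h. Its change at 46h against 0h was 0.57 (adjusted p = 0.0109, limma), and it did not pass because the fold of FPKM + 1 lay under 1.5.

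Of the 4 enzymes that work with SLC25A12 and SLC25A13 in the malate-aspartate shuttle, GOT2, the mitochondrial aspartate aminotransferase, rose from 12.6 ± 1.42 FPKM at 0h to 22.1 ± 4.84 at 46h (0.75, adjusted p = 0.0142, limma). MDH1, the cytosolic malate dehydrogenase, fell from 143 ± 15.01 FPKM to 1.91 ± 0.693 FPKM (-5.66, adjusted p = 1.77e-11). GOT1 and MDH2 did not pass in any comparison. MDH2 was 35.75 ± 8.40 FPKM at 0h, 82.1 ± 55.6 at 22h and 64.1 ± 22.8 at 46h. Its change was 0.94 at 22h against 0h (adjusted p = 0.101, limma) and 0.79 at 46h against 0h (adjusted p = 0.115), with a wide spread at 22h. The number of rises among the 23 genes at 22h against 0h was 3 without replicate 4 of 0h, where 12.3% of all genes rose. It was 2 without replicate 1 of 0h, replicate 1 or 2 of 22h or replicate 3 of 46h (6.66%, 8.90%, 5.90% and 7.71% of all genes). At 46h against 22h the number was 0 without replicate 1 or 2 of 22h or replicate 2 or 3 of 46h (8.21%, 9.70%, 9.45% and 9.04% of all genes).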

How the data were processed

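The authors trimmed reads with Trim Galore after FastQC, aligned them to Sscrofa11 with STAR and quantified genes with RSEM, and the deposited values are FPKM per Ensembl gene identifier for each of 12 libraries. Count data made with HTSeq were not used here, so limma on log2(FPKM + 1) took the place of a count test. Names for 15201 of the 31908 identifiers came from the reference tables (15029) and a supplementary table of the study (172). The members and all gene lists were chosen with earlier results of these data known.

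The 7013 genes whose mean reached 1 FPKM entered a single limma model of the 3 stages (version 3.58.1, trend in eBayes, R 4.3.3). P-values are two-sided and were adjusted over all genes tested (Benjamini-Hochberg), with a fold threshold of 1.5. The fit was tested on simulated data, and the outcome of that test is not reported here. Members under that mean and above 0 in any library were compared by an exact permutation test (70 arrangements). The values of 1 of them are not reported here. Values in every library are given for members past the thresholds in at least 2 comparisons, for the 3 most abundant and for the ADP/ATP carriers. Coordinates and sequences are from RefSeq for Sscrofa11.1, read with pysam 0.24.0. Alternatives changed the pseudocount (0.1) or the filter (none, or a mean of 5 FPKM), the scaling (TPM, TPM after removing mitochondrially encoded genes, quantile, median of ratios) or the fit (a replicate block, eBayes with no trend, the compared groups alone), or left out each library in turn.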

Additional observations from a re-analysis of the deposited data

Results flagged for a closer look

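For each of the 21 tested members, the 4 libraries of each time point were searched for a library far from the other 3, by Dixon's 95% criterion on the gap over the range. Of 63 groups, 3 held such a library, and chance gives about 1 in 20. MTCH1 was 0.88 FPKM in replicate 3 of 46h, against 0.53 to 0.56 FPKM in the others. SLC25A20 was 7.84 FPKM in replicate 1 of 46h, against 12.4 to 12.95 FPKM in the others. SLC25A40 was 24 FPKM in replicate 4 of 0h, against 17.9 to 18.6 FPKM in the others. The calls of MTCH1 and SLC25A20 at 46h passed with these libraries left out.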

How the results depend on the processing

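Of the 63 changes of tested members, 32 passed, and 18 of these passed under every setting in which the member was tested, while 14 were lost under some setting. Of the 31 that did not pass, 11 passed under some setting. At 22h against 0h, the members that rose (0) numbered 1 with a pseudocount of 0.1 and 2 with quantile normalization or TPM without mitochondrially encoded genes. Of all genes, 8.67%, 14.6% and 11.3% rose under these settings in that order. The members that fell (2) numbered 1 with a pseudocount of 0.1, no filter, a filter at a mean of 5 FPKM, quantile normalization, median-of-ratios scaling or a fit of the compared groups alone. The shares of all genes that fell were then 18.4%, 7.36%, 19.35%, 15.5%, 17.9% and 17.0%. With no filter more members were tested, and with the filter at 5 FPKM SLC25A12 was not tested. At 46h against 22h, quantile normalization gave 6 rises in place of 3 and 6 falls in place of 11 (26.9% and 21.6% of all genes). A mean of at least 5 FPKM tested 4144 genes and 42 of the 63 member changes, and none of these 42 calls changed. It gave 7 falls among the fewer members tested, where 34.2% of all genes fell. At 46h against 0h, quantile normalization and median-of-ratios scaling each gave 8 rises in place of 5 (40.3% and 29.3% of all genes rose). Falls numbered 6 with quantile normalization, in place of 11 (27.2% of all genes fell). With the mean of at least 5 FPKM they numbered 5 among the fewer members tested, where 38.0% of all genes fell.

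Among the listed import and shuttle genes, rises at 22h against 0h (1) numbered 2 with median-of-ratios scaling or a pseudocount of 0.1 and 3 with quantile normalization or TPM without mitochondrially encoded genes. Of all genes, 9.57%, 8.67%, 14.6% and 11.3% rose under these settings in that order. Rises at 46h against 22h (1) numbered 0 with no filter, TPM or a fit of only the groups compared and 2 with quantile normalization. The shares of all genes that rose were then 3.40%, 7.49%, 10.3% and 26.9%. Rises at 46h against 0h (2) numbered 7 with quantile normalization and 6 with median-of-ratios scaling, where 40.3% and 29.3% of all genes rose. The cause of these differences was not tested.

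With each library left out, members that rose numbered 0 to 1, 2 to 3 and 4 to 6 at 22h against 0h, 46h against 22h and 46h against 0h, and members that fell 1 to 2, 9 to 11 and 10 to 12. For the listed genes rises were 1 to 3, 0 to 1 and 2 to 3. Of all genes, 5.75% to 12.3%, 8.21% to 10.4% and 15.8% to 18.4% then rose in these comparisons. Falls were 16.1% to 19.6%, 30.4% to 33.95% and 38.1% to 40.3% of all genes. Under the filter, members wholly higher at 22h than at 0h numbered 0 to 1 and those wholly lower 1 to 2. Smaller groups part more easily than full ones, and the share of all genes was not computed for them, so these counts are not read further. In the limma fits with a library left out, a group of 3 shares its spread with the others. With the replicate number as a block, none of the 63 calls changed, and calls over all genes were 504 and 1297 in place of 550 and 1323 at 22h against 0h. Same-numbered libraries of different stages had deviations correlated by -0.466 to 0.381, and 7 of 24 comparisons had the own number as best match, so the numbers were not taken as pairs. Depth is unknown, and members near 0 FPKM are the least certain.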
